A study of Mus musculus with 14 samples.

Results

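The genes described here are 4 of the 27179 genes in the count table: Mt1 and Mt2, which encode the metallothioneins expressed in most tissues, Mtf1, which encodes their metal-sensing regulator, and Slc30a1, which encodes the zinc exporter ZnT1. They were chosen by NCBI Gene number, starting from Mt1 because its counts were higher in tumor than in spleen in these same libraries, so that tumor against spleen is a description for these 4 genes and carries no test. Metallothioneins are small proteins whose many cysteines bind zinc, copper and cadmium. When free zinc in a cell rises, the zinc finger protein encoded by Mtf1 binds short metal response elements in front of the metallothionein genes and of Slc30a1, whose product moves zinc out of the cell. Metallothioneins are also induced by glucocorticoids and oxidative stress, and their transcripts have been described in dysfunctional CD8 T cells of mouse tumors.

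The RNA came from regulatory T cells (Tregs), a CD4 lineage defined by the transcription factor Foxp3, sorted by a yellow fluorescent protein (YFP) made with Foxp3 from spleen and from MC38 tumors, grown in the flank from mouse colon carcinoma cells, when growth had reached the endpoint. The strains were B6.IL23RWT FoxP3Cre-YFP and B6.IL23RFlox FoxP3Cre-YFP, so the WT-labelled mice also carried the Foxp3-driven Cre recombinase and differed by a pair of intact Il23r alleles in place of floxed ones (IL23RWT/WT against IL23RFlox/Flox). Each tissue had 4 WT-labelled and 3 Flox-labelled libraries, 14 in all, and whether replicates came from separate mice is not in the labels, so the p-values speak only of how far these samples spread. The series states Flox against WT within a tissue as its comparison, which concerns what loss of the IL-23 receptor does to Tregs.

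The 14 libraries held 4859099 to 10333892 counts, and 3 counts corresponded to 0.290 to 0.617 CPM (counts per 1000000 counts of a library, with TMM-adjusted totals). Foxp3 was detected in every library, at 98.25 to 268.3 CPM, and none of 9 Treg and T cell markers was at 0 in any. Il23r, the targeted gene, had 17 counts in the 3 Flox-labelled and 2 in the 4 WT-labelled tumor libraries, and 10 against 2 in spleen. By library the Flox label had 4, 7 and 6 counts in tumor, each above the WT-labelled ones (0 to 2). The same label had 1, 0 and 9 counts in spleen, where the higher total rested on replicate 3. Counts per gene cannot show whether a floxed part was lost, and the genotype behind the labels was not tested. Xist was lower and the Y-linked genes Ddx3y, Eif2s3y, Kdm5d and Uty were higher in all Flox-labelled libraries than in any WT-labelled one, tissue by tissue, so genotype label and sex-linked reads cannot be told apart. The libraries are for this reason named by their labels. Both WT replicate 2 libraries held reads of Xist together with Ddx3y (126.5 CPM in tumor, 29.2 CPM in spleen). Eif2s3y, Kdm5d and Uty had 43, 35 and 30 counts in the spleen library but only 3, 3 and 2 in the tumor library. In tumor, therefore, Ddx3y alone stood out among the Y-linked genes. The values of the 4 genes without the WT replicate 2 libraries are given in the closing section.

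Mt1 (NCBI Gene 17748, chr8:94178883-94180327, GRCm38.p6) and Mt2 (NCBI Gene 17750, chr8:94172618-94173567) lie next to each other on the plus strand, beyond Mt4 and Mt3 of the same cluster, each with 3 exons. The coding sequences are shown because they make the metal-binding nature of the products visible and because the counts of 2 similar genes are compared below. Both, taken from GENCODE M21, have 61 codons before the stop, of which 20 (32.8%) encode cysteine, written in capitals.
Mt1: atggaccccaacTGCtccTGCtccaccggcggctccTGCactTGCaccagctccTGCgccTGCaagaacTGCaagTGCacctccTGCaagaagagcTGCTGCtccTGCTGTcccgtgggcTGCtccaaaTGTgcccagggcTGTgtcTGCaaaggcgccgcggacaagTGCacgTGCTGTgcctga
Mt2: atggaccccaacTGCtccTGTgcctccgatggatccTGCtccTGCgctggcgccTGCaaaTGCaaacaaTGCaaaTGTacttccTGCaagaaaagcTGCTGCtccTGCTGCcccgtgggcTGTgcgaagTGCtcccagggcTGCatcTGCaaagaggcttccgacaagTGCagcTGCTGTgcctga
The 2 sequences were identical at 148 of 186 bases (79.6%), and the longest stretch without a difference was 20 bases. How the authors' counting treated reads shared by both genes is not stated.

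Mtf1 (NCBI Gene 17764, chr4:124802549-124849800, 11 exons) and Slc30a1 (NCBI Gene 22782, chr1:191906697-191913248, 2 exons) also lie on the plus strand. RefSeq (GRCm38.p6) start-site windows of 300 bases, 250 before and 50 after a gene's start, were found for all 4 genes and searched on both strands for the core of the metal response element, TGCACNC or TGCGCNC. Mt2 held 4 cores, Mt1 3, Slc30a1 2 and Mtf1 none. Among 32544 such windows of the genome, 25.9% held at least 1 core, 1.99% at least 3 and 0.522% at least 4. The windows use the start of 1 RefSeq transcript a gene, which for Mt1 and Slc30a1 lies inside the gene span printed above. The cores that lay before that transcript start are shown with 11 bases on either side, because they are the letters the protein of Mtf1 is known to read. The core is in capitals, and a core on the minus strand appears as its reverse complement.
Mt1, chr8:94179055-94179083: cggtcccgctgTGCACACtggcgctccag
Mt2, chr8:94172384-94172412: agcatcgcctcTGCACCCggcccctcggg
Mt2, chr8:94172479-94172507: cgcagacccttTGCGCTCagctcctttgc
Mt2, chr8:94172557-94172585, minus strand: ggggggagggcGTGTGCAggctctgtccc
Slc30a1, chr1:191906727-191906755, minus strand: acgggggttccGAGTGCAaagcaaagttt
The GC box GGGCGG was counted 5 times for Slc30a1, 3 times for Mt1, 1 time for Mtf1 and 0 times for Mt2, against at least 1 in 35.9% of windows. The TATA box TATAAA was in none of the 4 windows and in 13.6% of all. It was found instead further into the GENCODE transcripts, at base 129 for Mt1 and base 90 for Mt2, with 4 and 3 metal response cores ahead of it, some of them the matches already counted. These transcripts, which start at chr8:94179082 and chr8:94172664, were looked at after the windows had been seen. GENCODE also lists Mt1 transcripts that start further in, at chr8:94179211 and chr8:94179241, and an Mt2 transcript that starts at chr8:94172860. The windows do not reach these starts, so their counts of cores and TATA boxes are not those of every annotated start. Which start these cells use was not tested. A match is a run of letters and not a measured binding site.

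Mt1 was near the detection floor in spleen Tregs and clearly detected in tumor Tregs. In spleen the WT-labelled libraries had 0.409, 1.09, 0.395 and 1.13 CPM and the Flox-labelled ones 0.401, 0.373 and 0.168 CPM, which is 2 to 14 counts a library. In tumor the WT-labelled libraries had 29.5, 92.5, 17.0 and 30.8 CPM and the Flox-labelled ones 28.5, 23.6 and 35.6 CPM. Every tumor library lay above every spleen library, and the lowest WT-labelled tumor library stood 15.1-fold above the highest WT-labelled spleen library. WT replicate 2 was the highest of the tumor libraries, and the other 6 lay between 17.0 and 35.6 CPM.

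The log2 fold change of Mt1 in tumor over spleen was 5.79 ± 0.81 (SE) in WT-labelled libraries, the 81st highest of 10560 genes fitted, and 6.51 ± 0.61 in Flox-labelled ones, the 94th highest of 10760. Group means were 42.5 ± 34.0 (SD, n = 4) against 0.756 ± 0.409 CPM (n = 4), and 29.2 ± 6.02 (n = 3) against 0.314 ± 0.128 CPM (n = 3). In bulk RNA, more cells expressing a gene and more RNA per cell cannot be told apart. These values come from the contrast that chose Mt1 and are a description.

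Mt2, whose protein binds the same metals, showed the same order at a lower level. In spleen it had 0.409, 1.17, 0.395 and 0.188 CPM in WT-labelled and 0.301, 0.498 and 0.168 CPM in Flox-labelled libraries, or 1 to 15 counts. In tumor it had 9.96, 4.63, 2.82 and 9.19 CPM in WT-labelled and 4.81, 2.93 and 8.78 CPM in Flox-labelled libraries. No tumor library overlapped with a spleen library, as for Mt1, but the library with the most Mt1, WT replicate 2 of the tumor, was the third lowest of the 7 tumor libraries for Mt2. The log2 fold change was 3.50 ± 0.65 in WT-labelled libraries (6.65 ± 3.48 against 0.541 ± 0.432 CPM) and 4.10 ± 0.64 in Flox-labelled ones (5.51 ± 2.99 against 0.322 ± 0.166 CPM). Without WT replicate 2 in both tissues the value in WT-labelled libraries became 4.32, and that of Mt1 5.31. In WT-labelled libraries 9.6% of the genes fitted lay higher in tumor with no overlap between groups, and in Flox-labelled libraries 16.9% did. edgeR called 3.9% and 4.15% of genes as higher in tumor, and DESeq2 called 23.0% and 27.0% in either direction. Nothing is read from the metallothioneins beside these shares, since the rule used this contrast and both genes passed the count filter only through the tumor libraries.

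**Figure D1:**
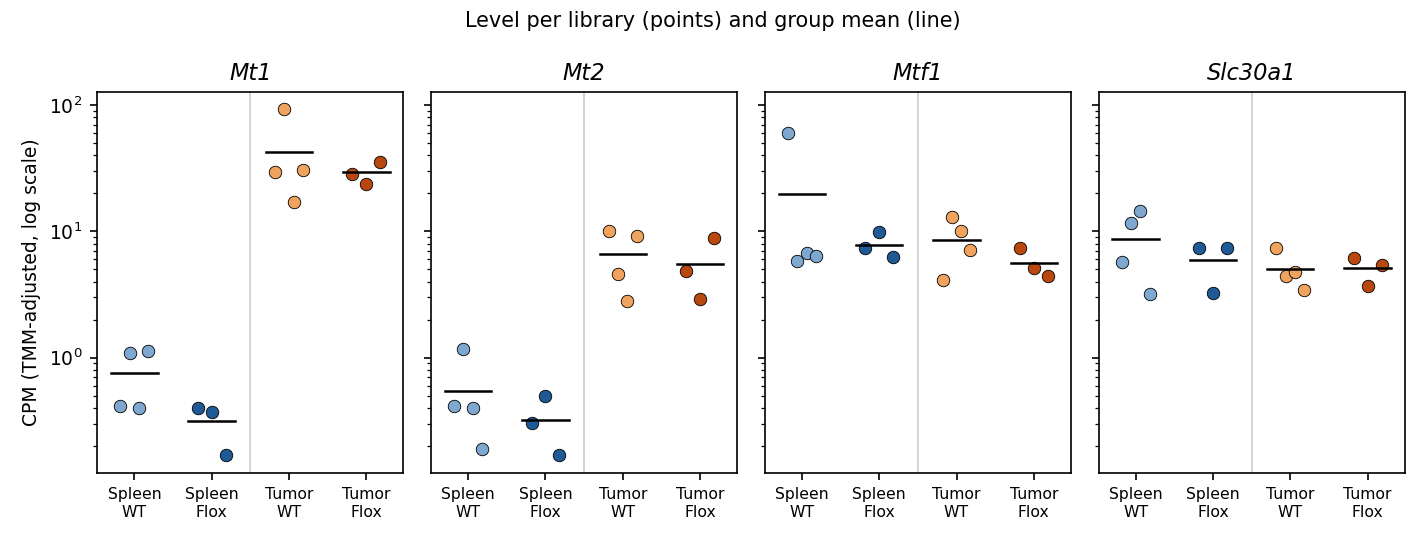
Level of Mt1, Mt2, Mtf1 and Slc30a1 in each of the 14 libraries, in TMM-adjusted CPM on a log axis, by tissue and label, with a line at each group mean. Mt1 and Mt2 separate tumor from spleen in every library, while Mtf1 and Slc30a1 overlap, with 1 spleen WT-labelled library at 59.6 CPM of Mtf1.

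Mtf1, the regulator, did not follow the metallothioneins. In spleen it had 59.6, 5.77, 6.71 and 6.39 CPM in WT-labelled and 7.32, 9.83 and 6.28 CPM in Flox-labelled libraries. In tumor it had 4.10, 13.0, 9.99 and 7.11 CPM in WT-labelled and 7.42, 5.10 and 4.39 CPM in Flox-labelled libraries. Spleen WT replicate 1 stood apart from all others, and the remaining 13 libraries lay between 4.10 and 13.0 CPM with the tissues overlapping. The log2 fold change of tumor over spleen was -1.16 ± 0.86 for the WT label and -0.45 ± 0.41 for the Flox label. Without Spleen WT replicate 1 the WT-labelled value turned to 0.43.

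Slc30a1, the zinc exporter and itself a known target of the Mtf1 protein, also overlapped between the tissues. It had 5.73, 11.6, 14.4 and 3.20 CPM in WT-labelled and 7.32, 3.23 and 7.37 CPM in Flox-labelled spleen libraries. In tumor it had 7.42, 4.41, 4.79 and 3.43 CPM in WT-labelled and 6.16, 3.70 and 5.41 CPM in Flox-labelled libraries. The highest values were in 2 WT-labelled spleen libraries, and the tumor libraries all lay within the range of the spleen ones. The log2 fold change was -0.81 ± 0.53 for the WT label and -0.23 ± 0.48 for the Flox label. Neither Mtf1 nor Slc30a1 was lower in tumor without overlap, as 8.38% of genes were for the WT label and 16.1% for the Flox label.

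Levels of different genes were compared per kilobase of annotated transcript. In WT-labelled tumor libraries Mt1 had 77.3 ± 61.8 CPM per kilobase (SD, n = 4), Mt2 13.0 ± 6.80, Mtf1 1.12 ± 0.501 and Slc30a1 0.956 ± 0.325. In WT-labelled spleen libraries the same scale gave 1.38 ± 0.745 for Mt1, 1.06 ± 0.845 for Mt2, 2.57 ± 3.49 for Mtf1 and 1.67 ± 0.986 for Slc30a1. The ranges of the 4 genes overlapped in these spleen libraries, while in the tumor ones Mt1 came first and Mt2 next, without overlap. Over the 4 groups, mean Mt1 fell in the order tumor WT, tumor Flox, spleen WT and spleen Flox, and only the step from tumor to spleen separated neighbours without overlap.

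The balance of the 2 metallothioneins was read as the ratio of their counts within a library. In tumor there were 2.96, 20, 6.05 and 3.35 counts of Mt1 for each count of Mt2 in WT-labelled libraries and 5.94, 8.04 and 4.05 in Flox-labelled ones. In spleen the ratio was 0.75 to 1.33 in 6 libraries and 6 in WT replicate 4, which had 6 counts of Mt1 and 1 of Mt2. Every tumor library held more Mt1 than Mt2, and the 20 to 1 library was WT replicate 2. Between labels the log2 ratio of Mt2 to Mt1, with 0.5 CPM added, differed by 0.041 in tumor (-2.41 ± 0.428 against -2.45 ± 1.22, SD, 2-sided exact permutation p = 0.971, n = 3 and 4). In spleen it differed by 0.30 (exact permutation p = 0.743), and both had p = 0.971 after Benjamini-Hochberg adjustment over the 2 tests. With 3 against 4 libraries the smallest p is 0.0286. Without WT replicate 2 the tumor difference became -0.54 (exact permutation p = 0.2), without Flox replicate 3 it was -0.18, and without Spleen WT replicate 4 the spleen difference was -0.016.

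**Figure D2:**
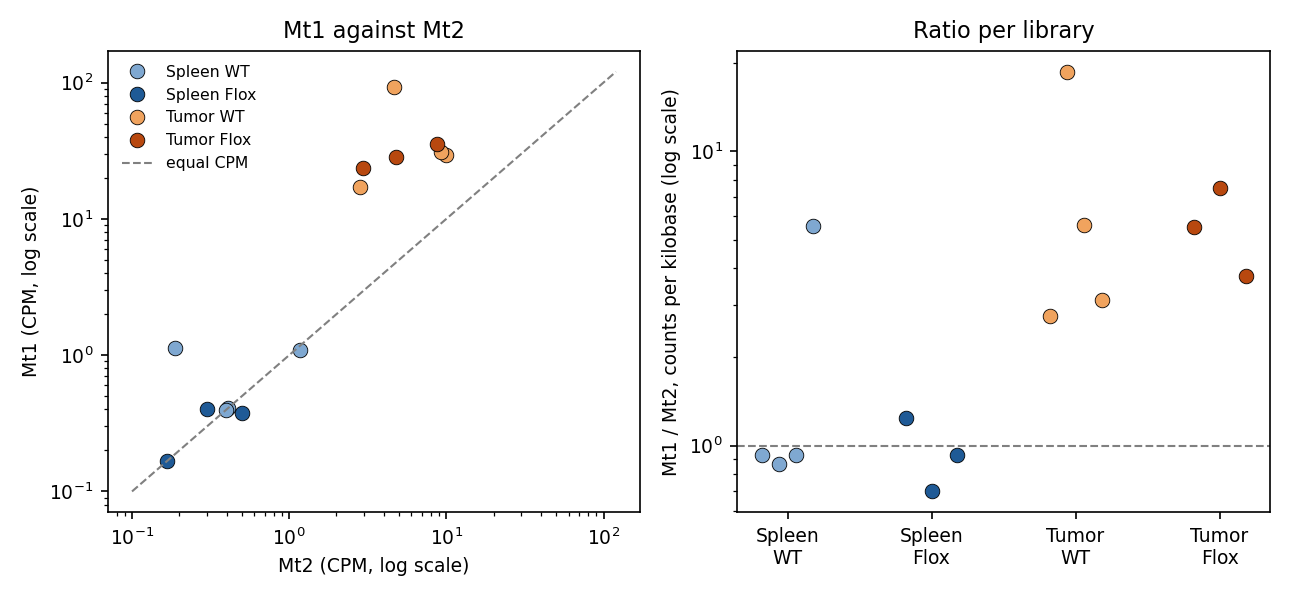
Left, Mt1 against Mt2 in CPM for each library, both on log axes, with a dashed line of equal CPM. Right, the ratio of Mt1 to Mt2 in counts per kilobase of transcript for each library on a log axis, with a dashed line at 1. Tumor libraries lie above equality in both plots, and 6 of 7 spleen libraries lie close to it.

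The other 2 genes of the cluster were read beside them. Mt3, first described as a growth inhibitory factor of the brain, had 22, 12, 6 and 16 counts in WT-labelled and 12, 13 and 11 in Flox-labelled tumor libraries, and 0 to 4 counts in spleen. In CPM this was 0.845 to 4.30 in tumor and 0 to 0.498 in spleen, without overlap, and its counts were too low for the fit between tissues. Of the genes fitted, 9.6% and 16.9% lay higher in tumor without overlap for the WT and Flox labels. The coding sequences of Mt1 and Mt3 shared a stretch of 27 bases without a difference, and reads shared by these genes were not assessed. Between labels in tumor the log2 fold change of Mt3 was -0.56 ± 0.60 (adjusted p = 0.806 in edgeR). Mt4, a gene of stratified epithelium, had 0 counts in all 14 libraries. Of the 8 genes flanking the cluster, 6 could be fitted for the WT label and 7 for the Flox label, and edgeR called 0 between tumor and spleen (adjusted p 0.136 to 0.931 and 0.172 to 0.797).

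The comparison the series states, Flox against WT within a tissue, is another contrast than the one that chose Mt1, over the same counts. In tumor Tregs none of the 4 differed by more than the spread between libraries. Mt1 had a log2 fold change of -0.55 ± 0.70 (SE, 95% limits -2.35 to 1.24), Mt2 -0.27 ± 0.56 (-1.71 to 1.17), Mtf1 -0.63 ± 0.49 (-1.88 to 0.63) and Slc30a1 0.014 ± 0.387 (-0.98 to 1.01). The adjusted p in edgeR's quasi-likelihood test, over 10777 genes, was 0.844, 0.921, 0.713 and 0.995. The limits of Mt1 span a fall and a rise of more than 1 log2 unit, so neither the test nor a count of 0 calls shows that the labels are alike. Without WT replicate 2, the library with the most Mt1, its value became 0.18, without Flox replicate 2 that of Mt2 became 0.020, and that of Slc30a1 turned negative without any 1 of WT replicate 2 (-0.039), WT replicate 4 (-0.12), Flox replicate 1 (-0.14) or Flox replicate 3 (-0.0038). edgeR called 0% of all genes in this comparison, with 871 at an unadjusted p under 0.05, while DESeq2 called 266 (2.47%) and limma voom 1. DESeq2's adjusted p for the 4 genes was 0.590 to 0.995.

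In spleen Tregs Mtf1 had -1.31 ± 0.96 (-3.78 to 1.16, adjusted p = 0.771 in edgeR) and Slc30a1 -0.55 ± 0.63 (-2.17 to 1.07, adjusted p = 0.862). Without Spleen WT replicate 1, which held 582 of the 758 WT-labelled counts of Mtf1, its value became 0.28. Mt1 and Mt2 did not reach the count filter here, with 9 and 9 counts in Flox-labelled and 28 and 24 in WT-labelled libraries. Without the filter their log2 fold changes were -1.18 (adjusted p = 0.71 in edgeR) and -0.74 (adjusted p = 0.754). In this comparison edgeR called 0% of 10935 genes, with 750 at an unadjusted p under 0.05, DESeq2 called 124 (1.13%) and limma voom 0.

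The 8 group pairs were also compared by library. In each gene and tissue the Flox-labelled and WT-labelled libraries overlapped, where 2.47% and 2.53% of genes in tumor and 2.75% and 3.13% in spleen lay higher and lower without overlap. Differences of mean log2 CPM had 2-sided exact permutation p of 0.114 to 1, and 0.914 to 1 after adjustment over the 8. With 3 against 4 libraries the smallest p is 0.0286, so a single pair at that value could not have passed after this adjustment. The spleen pairs of Mt1 and Mt2 rest on at most 15 counts a library. These p-values therefore add nothing to the fits above. The difference of the genotype contrasts between the tissues was 0.69 ± 0.89 for Mt1, 0.54 ± 0.93 for Mt2, 0.73 ± 1.11 for Mtf1 and 0.58 ± 0.76 for Slc30a1, fitted over 12008 genes. Mt1 and Mt2 passed the count filter of this fit through their tumor libraries, and their differences rest on the spleen counts just given, so no p is given for them. The adjusted p in edgeR was 0.867 for Mtf1 and 0.832 for Slc30a1. That of Mtf1 turned to -0.91 without Spleen WT replicate 1. That of Mt2 turned to -0.13 without Spleen WT replicate 2 and to -0.31 without WT replicate 2 in both tissues, where that of Mt1 was 1.14. In this test edgeR called 0% of genes, with 1296 at an unadjusted p under 0.05, and DESeq2 called 153 (1.27%).

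**Figure D3:**
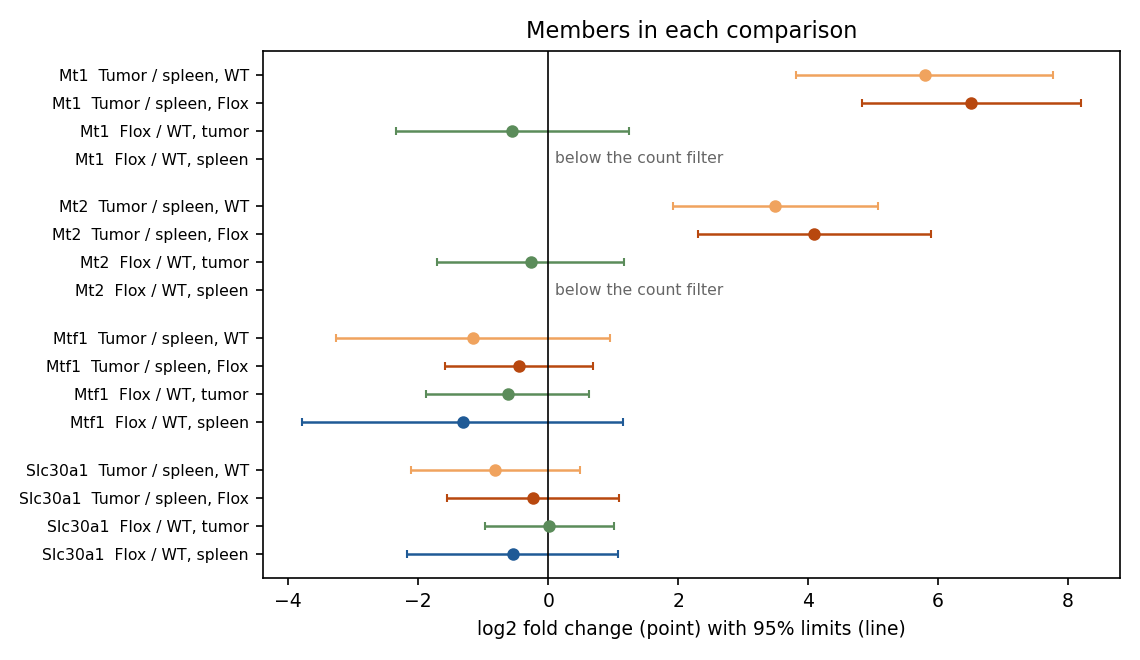
Log2 fold changes with 95% limits from edgeR for the 4 genes in tumor over spleen, in each label, and in Flox over WT, in each tissue. Tumor over spleen is the contrast that chose Mt1, so nothing is read from where its limits lie. Every interval shown of Flox over WT includes 0.

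Levels of the 4 genes were also related to each other across the 7 libraries of a tissue, with 12 relations in all. None passed after adjustment (exact permutation, adjusted p 0.885 to 0.935 for Pearson's r and 0.939 to 1 for Spearman's rho). Both labels were pooled, since 3 or 4 libraries of a label are too few for a value. Mt1 and Mt2 had r = 0.24 (rho = 0.50, exact p = 0.664 and 0.267) in tumor, and 0.82 without the 2 libraries farthest from the median. In spleen they had r = 0.45 (rho = 0.21, exact p = 0.377 and 0.662), and 0.82 without the 2 farthest. Mt1 and Mtf1 had r = 0.39 in tumor (rho = 0, exact p = 0.417 and 1), which became -0.15 without the 2 farthest libraries and so rested on them.

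As a description, the genes whose deviations from their group means were most like those of Mt1 over the 14 libraries were Zfp626 (Pearson's r = 0.877), Primpol (0.869), Edem2 (0.868), Rnf7 (0.857) and Herc4 (0.849), out of 6599 genes with a mean of at least 10 CPM. For Mt2 they were Atp5b (0.912), Otud5 (0.910), Wrnip1 (0.899), Cct7 (0.891) and Rps27a (0.890). The points share library and depth, and Mt1 and Mt2 had r = 0.24 with each other on this measure.

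edgeR called none of the remaining zinc transporters between tissues, while DESeq2 called some of them. Of 9 other Slc30 genes, which load zinc into vesicles or export it, 5 were tested and edgeR called 0 in either label, where it called 7.1% of 10560 genes in WT-labelled and 7.87% of 10760 in Flox-labelled libraries. Their median log2 fold change in tumor over spleen was -0.55 for the WT label and 0.0012 for the Flox label, beside 0.048 and 0.041 over all genes. Of 14 Slc39 genes, which bring zinc into the cytosol, 10 were tested and 0 called, with medians of -0.43 and -0.46. At an unadjusted p under 0.05 there were 0 and 2 Slc30 and 1 and 1 Slc39 genes, beside 2834 of 10560 and 2908 of 10760 of all genes. DESeq2 called 0 and 1 Slc30 and 2 and 2 Slc39 genes. Over all genes DESeq2 called 23.0% and 27.0% in these comparisons.

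The zinc genes with the smallest p were variable between libraries. Slc30a4 had -3.11 ± 1.57 for the WT label and 5.18 ± 1.54 for the Flox label (adjusted p = 0.239 and 0.0922 in edgeR), and the former turned to 0.71 without Spleen WT replicate 3. Slc30a5, which supplies zinc to enzymes of the secretory pathway, had -0.55 ± 0.39 in WT-labelled libraries, and Slc30a9 had 2.60 ± 0.78 in Flox-labelled ones. Slc39a3 had -2.87 ± 0.96 and Slc39a4, the importer mutated in the zinc deficiency acrodermatitis enteropathica, 3.29 ± 1.54 in WT-labelled libraries. In Flox-labelled libraries Slc39a14 had -3.85 ± 1.17 and Slc39a1, an importer of the plasma membrane, 0.75 ± 0.39. Slc39a1 stood at 131 ± 37.0 (n = 4) and 165 ± 15.4 CPM (n = 3) for WT and Flox in tumor, and at 84.8 ± 20.7 and 98.7 ± 10.4 CPM for the same labels in spleen. DESeq2 called Slc39a3 and Slc39a4 with the WT label, and with the Flox label Slc30a9, Slc39a14 and Slc39a1.

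Between labels, edgeR called 0 of the 5 tested Slc30 and 0 of the 10 tested Slc39 genes in tumor and in spleen, with 1 and 1 at an unadjusted p under 0.05 in tumor and 2 and 0 in spleen, and DESeq2 called 0. Over all genes edgeR called 0% in both tissues, and DESeq2 called 2.47% in tumor and 1.13% in spleen. At an unadjusted p under 0.05 there were 871 of 10777 genes in tumor and 750 of 10935 in spleen. In tumor Slc39a10, an importer that B cells need, had 3.85 ± 1.65, with 743 CPM in its highest and 10.1 CPM in its lowest Flox-labelled library, and without Flox replicate 3 it had -0.53. Slc39a4 had -3.55 ± 1.5, Slc30a4 3.54 ± 1.39 and Slc30a6 -0.50 ± 1.04, and Slc30a6 turned to 1.33 without WT replicate 3. In spleen Slc30a4 had -4.76 ± 1.88, Slc30a9 -1.77 ± 0.74, Slc39a3 -2.0 ± 1.05 and Slc39a10 1.73 ± 0.99. The adjusted p in edgeR was 0.584 to 0.921 for the named genes in tumor and 0.674 to 0.707 in spleen.

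Genes of other pathways known to induce metallothioneins were read from lists. In the oxidative stress list, 2 of 12 tested genes rose in tumor in WT-labelled libraries and 3 of 12 in Flox-labelled ones by edgeR, beside 3.9% and 4.15% of all genes called higher, and 0 fell. DESeq2 called 5 and 4 genes of this list, beside 23.0% and 27.0% of all genes in either direction. Srxn1, which repairs oxidized peroxiredoxins, stood at 20.6 ± 13.7 CPM against 1.05 ± 0.567 with the WT label (4.27 ± 0.66 on the log2 scale, adjusted p = 0.00911 in edgeR) and at 15.0 ± 3.99 against 0.490 ± 0.284 CPM in Flox-labelled ones (4.89 ± 0.62, adjusted p = 0.0178). Its spleen levels lay near the floor and it passed the count filter through the tumor libraries, so nothing is read from its p. Sqstm1, an autophagy receptor that also binds Keap1, rose by 2.25 ± 0.47 (adjusted p = 0.0265) and 1.64 ± 0.37 (adjusted p = 0.0485). Hmox1, which breaks down haem, was called in Flox-labelled libraries (4.89 ± 0.93, adjusted p = 0.0308 in edgeR), at 49.7 ± 46.8 against 1.66 ± 0.569 CPM. In WT-labelled libraries it had 12.2 ± 4.62 against 3.85 ± 1.45 CPM and was not called.

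In the glucocorticoid list Ddit4, an inhibitor of mTOR signalling, rose in both labels, at 168 ± 75.6 against 24.7 ± 8.86 CPM in WT-labelled (2.76 ± 0.56, adjusted p = 0.0235 in edgeR) and 218 ± 33.9 against 31.2 ± 5.59 CPM in Flox-labelled libraries (2.82 ± 0.45, adjusted p = 0.0222). The kinase gene Sgk1 (5.78 ± 1.12, adjusted p = 0.0326) and the clock gene Per1 (2.25 ± 0.39, adjusted p = 0.0261) were called by edgeR in Flox-labelled libraries. There Sgk1 stood at 290 ± 311 against 5.32 ± 0.917 CPM and Per1 at 20.4 ± 1.95 against 4.33 ± 0.094 CPM. In WT-labelled libraries, without a call, Sgk1 had 138.5 ± 149 against 13.1 ± 13.7 CPM and Per1 20.4 ± 4.71 against 7.22 ± 1.12 CPM. With Ddit4, 1 and 3 of 10 genes tested were called, beside 3.9% and 4.15% of all genes called higher by edgeR. DESeq2 called 3 and 6, beside 23.0% and 27.0% of all genes in either direction. The median of the list was 0.99 and 1.32, and that of the oxidative stress list 0.68 and 0.51. Of 8 copper-handling genes tested, edgeR called 0 in either label, with 0 and 1 at an unadjusted p under 0.05, and DESeq2 called 0 and 2. Of the iron-handling genes edgeR called 0 of 8 and 1 of 9, with 3 and 2 at an unadjusted p under 0.05, and DESeq2 called 2 and 3. Over all genes, in either direction, edgeR called 7.1% and 7.87% and DESeq2 23.0% and 27.0%. At an unadjusted p under 0.05 there were 2834 of 10560 and 2908 of 10760 of all genes. Slc40a1, the iron exporter ferroportin, fell in Flox-labelled libraries (-4.27 ± 0.94, adjusted p = 0.0443 in edgeR). It had 1.69 ± 0.511 CPM in spleen and 0.070 ± 0.121 CPM in tumor, and passed the count filter through the spleen libraries. Its WT-labelled levels were 3.16 ± 3.17 CPM in spleen and 0.062 ± 0.073 CPM in tumor. Without any 1 of the 3 spleen Flox-labelled libraries edgeR called 0 or 1 genes of the whole table, and all the Flox-labelled calls named here, Atf3 included, were lost. In WT-labelled libraries Srxn1 was called without any 1 library, while Sqstm1 was lost without any 1 of 6 of the 8 libraries (adjusted p up to 0.0781) and Ddit4 without Spleen WT replicate 1, 3 or 4 or TIL WT replicate 4 (up to 0.0728).

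Among genes of the immediate early and heat shock responses, which stress and cell handling can raise, edgeR called 2 of 12 as higher in tumor for the WT label and 1 of 12 for the Flox label, beside 3.9% and 4.15% of all genes. Atf3, a stress-induced transcription factor gene, had 5.75 ± 0.92 (adjusted p = 0.0108 in edgeR) and 6.63 ± 0.99 (adjusted p = 0.0216). In spleen Atf3 lay near the floor, at 0.381 ± 0.379 and 0.206 ± 0.041 CPM for the WT and Flox labels. It passed the count filter through the tumor libraries, so nothing is read from its p. Egr1 had 2.50 ± 0.62 (adjusted p = 0.0457) in WT-labelled libraries and was lost without any 1 of 7 of the 8. In Flox-labelled libraries Egr1 stood at 21.1 ± 8.53 CPM in tumor against 31.02 ± 40.7 CPM in spleen, and 3 of the 12 genes had fitted values below 0. DESeq2 called 2 and 5 genes of the list in the WT and Flox labels, Hspa8 among the latter as lower in tumor (113.3 ± 20.03 against 211.1 ± 11.9 CPM). Over all genes DESeq2 called 23.0% and 27.0%. The part of these responses in the levels of Mt1 and Mt2 was not tested. Between labels, 0 genes of the copper, iron, oxidative stress, glucocorticoid and immediate early lists were called in tumor or in spleen by edgeR or DESeq2, with 0 to 2 genes of a list at an unadjusted p under 0.05. Of all genes, edgeR called 0% there, and DESeq2 called 2.47% in tumor and 1.13% in spleen. An unadjusted p under 0.05 was found for 871 of 10777 genes in tumor and 750 of 10935 in spleen.

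**Figure D4:**
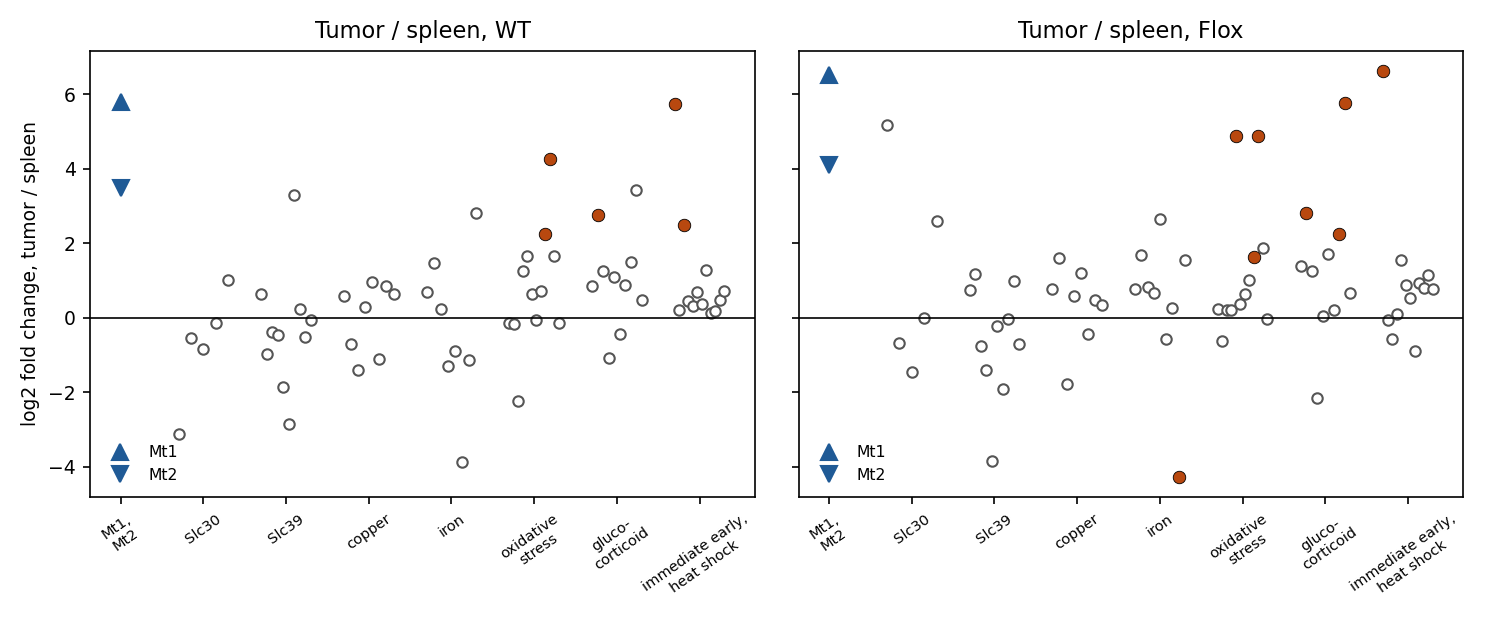
Log2 fold change of tumor over spleen in WT-labelled (left) and Flox-labelled (right) libraries for Mt1 and Mt2 (triangles) and for each tested gene of 7 lists (circles, filled where edgeR's adjusted p was under 0.05). No zinc or copper gene is filled, and Srxn1, Sqstm1, Ddit4 and Atf3 are filled in both.

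Transcripts of other cell types differed between the tissues beside the metallothioneins. The sum of Col1a1, Col1a2, Col3a1 and Dcn, which encode collagens and the matrix protein decorin of fibroblasts, was 135, 9.15, 107 and 51.1 CPM in WT-labelled and 102, 10.97 and 44.2 CPM in Flox-labelled tumor libraries, and 0 to 1.13 CPM in spleen, where Dcn was at 0 in 6 of 7 libraries. These 4 were picked from the 7 fibroblast and endothelial markers after their values were seen, because Pecam1, which Tregs can express, made up most of the sum of all 7 in spleen (37.4 to 292.9 CPM in tumor, 55.3 to 164.1 CPM in spleen). Of the 7 markers, edgeR called 2 of 3 tested as higher in tumor in WT-labelled and 3 of 4 for the Flox label, beside 3.9% and 4.15% of all genes, and 0 as lower. The genes called lay near the floor in spleen and passed the count filter through the tumor libraries, so nothing is read from these calls. The Flox-labelled calls of Col1a2, Col3a1 and Dcn were lost without any 1 of the 3 spleen Flox-labelled libraries, and that of Dcn in WT-labelled libraries without Spleen WT replicate 3 (adjusted p = 0.0695 in edgeR). In tumor WT replicate 2, the library with the most Mt1, the 4 picked genes summed to 9.15 CPM, the lowest of the tumor libraries, but over all 7 markers the lowest was Flox replicate 2 (37.4 CPM, against 68.2 CPM in WT replicate 2).

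The 13 macrophage and monocyte markers, cells that also express metallothioneins, summed to 30.4 to 205.2 CPM in WT-labelled and 68.1 to 244.4 CPM in Flox-labelled tumor libraries, against 195.7 to 403.9 CPM in spleen. Of these, edgeR called 1 of 9 tested as lower in tumor in WT-labelled libraries, Apoe (-2.96 ± 0.50, adjusted p = 0.0127), where it called 338 of 10560 genes as lower. In Flox-labelled libraries it called 2 of 9 as higher, Cd68 (4.97 ± 0.84, adjusted p = 0.0242) and Ms4a7 (5.74 ± 0.98, adjusted p = 0.0244), beside 4.15% of all genes. In Flox-labelled spleen libraries Cd68 had 0.660 ± 0.496 and Ms4a7 0.028 ± 0.048 CPM. Both passed the count filter through the tumor libraries, so nothing is read from their p. Single genes carried these sums. On average over the spleen libraries most of the sum was Apoe (184 ± 23.7 and 198.8 ± 52.5 CPM for the WT and Flox labels), and in tumor WT replicate 2, with 205.2 CPM, most of it was Adgre1 (143.1 CPM). In WT-labelled tumor libraries Cd68 reached at most 4.36 CPM, Csf1r 1.41 CPM and Lyz2 8.16 CPM. By fitted values 3 of 9 markers were higher in tumor for the WT label (median log2 fold change -1.33) and 8 of 9 for the Flox label (median 1.68), although 2 of the 3 Flox-labelled tumor sums lay below every spleen sum. Markers of carcinoma and epithelium summed to 0.391 to 4.65 CPM in tumor and 3.75 to 28.0 CPM in spleen, with Krt19 at 0 in all libraries and Krt8 at 0 in 13 of 14. B cell markers summed to 2.81 to 102.9 CPM in tumor and 263.6 to 1823 CPM in spleen, and erythroid markers to 0.128 to 31.8 and 56.4 to 591 CPM. Treg and T cell markers summed to 4946 to 9522 CPM in tumor and 2467 to 3941 CPM in spleen. The part of these cells in the level of Mt1 and Mt2 was not tested.

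**Figure D5:**
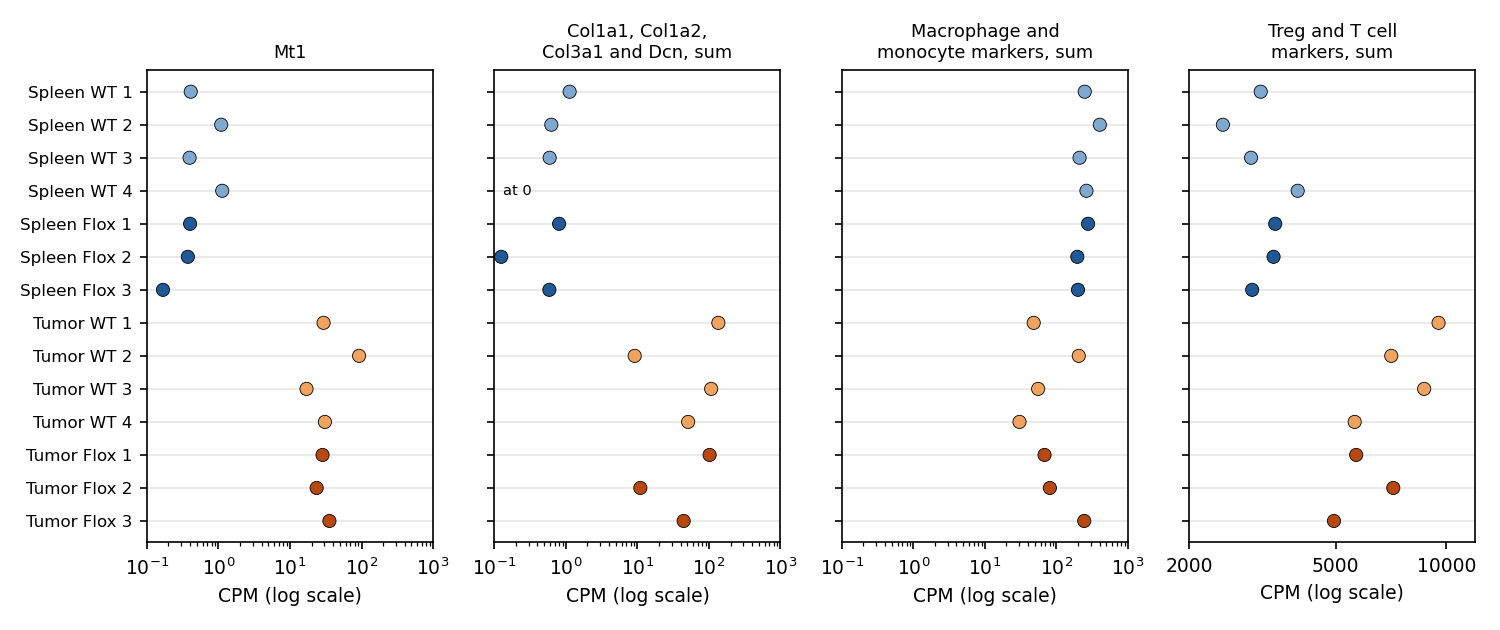
Mt1, the sum of 4 fibroblast genes, the sum of 13 macrophage and monocyte markers and the sum of 9 Treg and T cell markers in each library, in CPM on log axes. Mt1 and the fibroblast genes are both higher in each tumor library than in each spleen library, while all 7 fibroblast and endothelial markers together overlap between tissues (37.4 to 292.9 CPM in tumor, 55.3 to 164.1 CPM in spleen). The 4 genes were picked after their values were seen, and the macrophage sum is on average mostly Apoe in spleen, and mostly Adgre1 in tumor WT replicate 2.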

How the data were processed

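The deposited values were whole-number read counts for each gene in 14 libraries, which the authors had not normalized. Per the labels, a Qiagen RNeasy Plus micro kit gave the RNA for ultra-low-input libraries, and the submitters' processing notes name the build mm10. Aligner, counter, annotation and strand setting were not given in the sources used here. Of the gene IDs 25275 matched RefSeq symbols and 18 more matched through GENCODE M21. The 1886 others, with 1.25 to 1.94% of counts, were tested unnamed.

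Counts were tested with edgeR 4.0.16 in R 4.3.3 (TMM, filterByExpr by group, quasi-likelihood F test, Benjamini-Hochberg adjustment over all genes tested, threshold 0.05), with the libraries of a contrast only. The SE was the log2 fold change over the square root of F. CPM used TMM over all 14 libraries. Alternatives were DESeq2 1.42.0, limma 3.58.1 voom, RLE, no filter, all libraries in 1 fit, a replicate block and left-out libraries, and those for the list genes and the block for the ratio of Mt2 to Mt1 were chosen after seeing the data. The fits were tested on simulated data, where all of them recovered few or none of even the strongest effects put in. Of 16-fold changes, 0% were called between labels in tumor, 24% in spleen and 6% in the difference. In tumor over spleen 22% were called for the WT label and 2% for the Flox label. Thus 0 calls do not show a lack of change, either between labels or between tissues. Each fold size was put into 50 genes, while edgeR called 750 and 847 genes between the real tissues. The simulated shares for tumor over spleen may therefore understate recovery in the real comparison. Named genes were the 4 members, list genes that passed or otherwise the 2 zinc genes with the smallest p, and the 5 genes most like Mt1 and Mt2. Other lists without a call are given by counts. Members and lists were chosen with earlier results of these data known. Figures used matplotlib 3.10.9 in Python 3.11.15.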

Additional observations from a re-analysis of the deposited data

Results flagged for a closer look

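Of 30 groups of 4 libraries examined (members, their ratio and marker sums), 7 held a library farther from the others than a Dixon test at the 95% level allows. For normally distributed values chance flags about 1 in 20 groups. Levels and sums in CPM need not follow that distribution, and the groups share libraries, so 7 of 30 is not read as an excess over chance. Mtf1 stood at 59.6 CPM in Spleen WT replicate 1, where the rest of the group had 5.77 to 6.71 CPM. The log2 ratio of Mt2 to Mt1 was -1.24 in Spleen WT replicate 4, beside 0 to 0.069, and rested on 1 count of Mt2. The other 5 were sums of markers of other cells. Macrophage and monocyte markers reached 205.2 CPM in tumor WT replicate 2, beside 30.4 to 55.5 CPM, and 143.1 CPM of this was the single gene Adgre1. Neutrophil markers reached 47.1 CPM in Spleen WT replicate 2. In WT-labelled tumor libraries dendritic cell markers reached 28.6 CPM and B cell markers 102.9 CPM in replicate 3, and erythroid markers 31.8 CPM in replicate 1.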

How the results depend on the processing

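Of 158 alternative values of the 10 results of the 4 genes between labels and of the difference, 0 passed the threshold and 12 changed sign. The 10 include the differences of Mt1 and Mt2, for which no p is read. In simulated data these fits called 0% (tumor), 24% (spleen) and 6% (difference) of 16-fold changes, so 0 passing does not show stability. Of 108 alternative values of tumor over spleen, 104 moved by less than 1 SD between libraries in the same direction. Mt1 and Mt2 in spleen between labels have no value under the count filter. With 1 library left out, Mt1 in tumor ranged from -0.80 to 0.18, Mt2 from -0.74 to 0.020, Slc30a1 from -0.14 to 0.26 and Mtf1 in spleen from -1.64 to 0.28. Differences between tissues ranged from -0.13 to 0.96 for Mt2 and from -0.91 to 1.02 for Mtf1. Tumor over spleen ranged from 3.26 to 4.2 for Mt2 and from -1.47 to 0.43 for Mtf1 in WT-labelled libraries, and from 6.17 to 6.71 for Mt1 in Flox-labelled ones. The ratio of Mt2 to Mt1 ranged from -0.54 to 0.35 in tumor and from -0.016 to 0.42 in spleen. Slc30a6 in tumor ranged from -0.92 to 1.33, Slc39a10 in tumor from -0.53 to 5.18 and Slc30a4 in tumor over spleen from -3.85 to 0.71 in WT-labelled libraries. Genes called ranged from 373 to 658 and from 0 to 472 in tumor over spleen for the WT and Flox labels, and from 0 to 1 in spleen and in the difference, and were 0 in tumor. Without WT replicate 2 in both tissues, 329 genes were called in WT-labelled libraries. Tumor over spleen was then 5.31 for Mt1, 4.32 for Mt2, -1.76 for Mtf1 and -0.60 for Slc30a1, and the difference between tissues 1.14, -0.31, 1.26 and 0.32. Without it Flox over WT in tumor was 0.18, -0.40, -0.35 and -0.039 in the same order, and in spleen -1.64 for Mtf1 and -0.39 for Slc30a1. The tests had few counts of Mt1 and Mt2 in spleen, at most 15 a library.

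Same-numbered tumor and spleen libraries of a label had deviations that correlated at -0.027 to 0.054, and the numbers were not taken as a pairing. Such correlations cannot show that no mouse was shared. The labels do not say whether same-numbered libraries share a mouse, and of the WT-labelled libraries Ddx3y was above 1 CPM in replicate 2 of both tissues only. With the replicate block Slc30a1 in tumor was -0.14, Slc30a6 in tumor 0.18, the spleen ratio of Mt2 to Mt1 -0.016 and Mt1 in tumor -0.32. The block gave 173 and 1 genes in tumor over spleen for the WT and Flox labels, and 0 in both genotype contrasts and in the difference. DESeq2 called 266 genes in tumor, 124 in spleen, 153 in the difference, and 2430 and 2910 in tumor over spleen, where edgeR called 750 and 847. limma voom called 1 in tumor and gave Slc30a6 there as 0.60. RLE size factors gave Slc30a1 in tumor as -0.0030. All 14 libraries in 1 fit gave 4 in spleen and 1514 in tumor over spleen for the WT label, and no filter gave 457 for the Flox label. The cause of these moves was not tested. Without the 2 libraries farthest from the median, relations turned sign for Mt1 with Mtf1 (-0.15 in tumor, 0.39 in spleen), Mt1 with Slc30a1 in tumor (0.30), Mtf1 with Slc30a1 in tumor (0.061) and Mt2 with Mtf1 in spleen (0.39).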
